A study of Populus alba x Populus glandulosa with 12 samples.

Results

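Amino acid transporters and permeases are the membrane proteins that move amino acids, GABA and polyamines across the plasma membrane and into or out of the vacuole. Here 99 of the 34749 genes in the table were chosen by the wording of the description that the table pairs with each gene. A gene was taken where that description contains "amino acid transporter", "amino acid permease" or "lysine histidine transporter", and left out where it contains "auxin". No measured value enters this wording. The family was nevertheless picked with results of these same leaves known, so its counts and medians against the control are given as a description and not as evidence about the family. The 99 genes are paired with 34 Arabidopsis genes, and a name such as LHT1 refers to the Arabidopsis gene with which a poplar gene is paired.

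The leaves came from the hybrid Populus alba × P. glandulosa. Line 2 and line 7 overexpress PagSUPa (OE), which encodes a zinc finger protein of the C2H2 type, and the control (CK) is nontransgenic. Each group has 4 RNA-seq libraries numbered 1 to 4, 12 in all. Each OE group is a single transgenic line, and the sources used here give neither the promoter that drives PagSUPa nor the age of the leaves. The labels do not say whether replicates are separate plants, so the spread behind each p-value may be technical. Because the labels name leaves and no separated cell types, fewer cells of a type and less RNA per cell cannot be told apart.

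In plants, organic nitrogen made or released in one organ reaches another mainly as amino acids, which are loaded into phloem and xylem and taken up again by growing tissue. Several protein families do this work. AAP and LHT proteins import amino acids with protons at the plasma membrane, GAT1 imports GABA, CAT proteins favour cationic amino acids, PUT proteins take up polyamines, and AVT proteins act mainly at the vacuole. Cells use them both to recover amino acids that leak into the cell wall space and to pass them on between organs.

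Levels are in TPM, the share of a library's transcripts that come from a gene, corrected for transcript length and scaled to the same total in every library. Between 22710 and 24607 genes reached 1 TPM in a library, no pair of libraries was identical, and the depth of the libraries is unknown. Control replicates 1 and 2 stood apart from the other libraries in median ratio factors, at 1.23 and 1.21 against 0.883 to 1.06, and counts without them are given beside the main ones. The homolog of the zinc finger gene ZFP11 (Potri.002G041700), used as a check of the labels, ran from 1247 to 1714 TPM in line 2, from 1210.3 to 1551 TPM in line 7 and from 0 to 0.112 TPM in the control. An exact two-sided permutation test gave p = 0.00202 for OE against control libraries, the smallest value it can give. The table does not show that this gene is the transgene.

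By their paired Arabidopsis gene the members fall into 22 AAP genes, 22 AVT-type vacuolar genes, 16 CAT genes, 14 LHT-type genes, 9 GAT-type genes, 6 BAT1 genes, 6 PUT-type genes and 4 genes paired with AUX1. AUX1 is an auxin influx carrier whose description names an amino acid transporter family, which is why the wording takes its 4 homologs. Of the 99 genes, 70 reached 1 TPM in at least 4 libraries and were tested. The other 29 were left untested, and none of their values was above 3.63 TPM. Of the 70, 9 had no control library at 1 TPM and passed this filter through OE libraries alone, and 0 passed through control libraries alone. Passing only where a gene is high favours a difference, and 8 of these 9 were called higher. Those 8 are Potri.009G140800, Potri.001G335200, Potri.008G026700, Potri.001G093600, Potri.010G119100, Potri.007G100700, Potri.010G241000 and Potri.T101466. Their p-values are given as a description. The other, Potri.013G103501, was not called (limma adjusted p = 0.223).

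Most tested members differed from the control in OE leaves, and more were higher than lower. With both lines combined, 38 of the 70 were higher and 14 lower (limma, adjusted p under 0.05), while 18 were not called. These are 54.3% and 20% of the tested members, beside 22.1% higher and 34% lower among all 24926 tested genes. The median log2 fold change was 0.51 for the members and -0.13 for all tested genes, on the log2(TPM + 1) scale that holds for every fold change here and understates changes of low genes. Without the AUX1 homologs, 38 of 67 were higher and 13 lower. With the 9 genes set aside that passed the filter through OE libraries alone, 30 of 61 were higher and 14 lower, with a median of 0.33.

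Each line gave a similar picture. In line 2, 32 members were higher and 13 lower, beside 18.8% and 32.4% of all tested genes. In line 7, 32 members were higher and 9 lower, beside 18.9% and 24.8% of all tested genes. The lines share their 4 control libraries, and 28 members were higher and 9 lower in both. The count of lower members moved with single libraries, as did that of all tested genes. Without control replicate 1 it was 9 in place of 14 for both lines (all tested genes: 6463 in place of 8469). In line 2 it was 8 in place of 13 without line 2 replicate 4 or without control replicate 2 (all tested genes: 6772 and 6185 in place of 8071). In line 7 it was 5 in place of 9 without line 7 replicate 3, line 7 replicate 4 or control replicate 1. All tested genes there gave 4537, 4381 and 4115 lower in place of 6194.

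Some calls depended on which libraries entered the fit. Of the 38 higher members, 28 kept their call in all 12 fits that leave out 1 library each, and 25 kept it without control replicates 1 and 2. Of the 14 lower members, 9 and 4 did. Calls among all tested genes also fell without control replicates 1 and 2, from 5511 to 3887 higher and from 8469 to 3543 lower. Scaling the libraries by median ratios moved the median of all tested genes from -0.13 to 0.02, and it gave 43 higher and 10 lower members for both lines, 43 and 7 for line 2, and 36 and 7 for line 7. The calls among all 24926 tested genes moved as well, to 7514 higher and 6780 lower from 5511 and 8469 for both lines. By line they were 6958 and 6099 in line 2 and 6126 and 5441 in line 7. Under that scaling all 38 higher members and 10 of the 14 lower members kept their call.

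The lines were also compared with each other. No member was called between line 7 and line 2 (limma), 0 of 70 had an unadjusted p under 0.05, and 0% of all tested genes were called, with 418 of them at an unadjusted p under 0.05. The differences among members ranged from -0.90 to 0.72 (line 7 minus line 2), with a median of 0.02. The smallest unadjusted p was 0.0826, for the AVT-type gene Potri.002G233200 (log2 difference -0.51, adjusted p = 1).

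**Figure D1:**
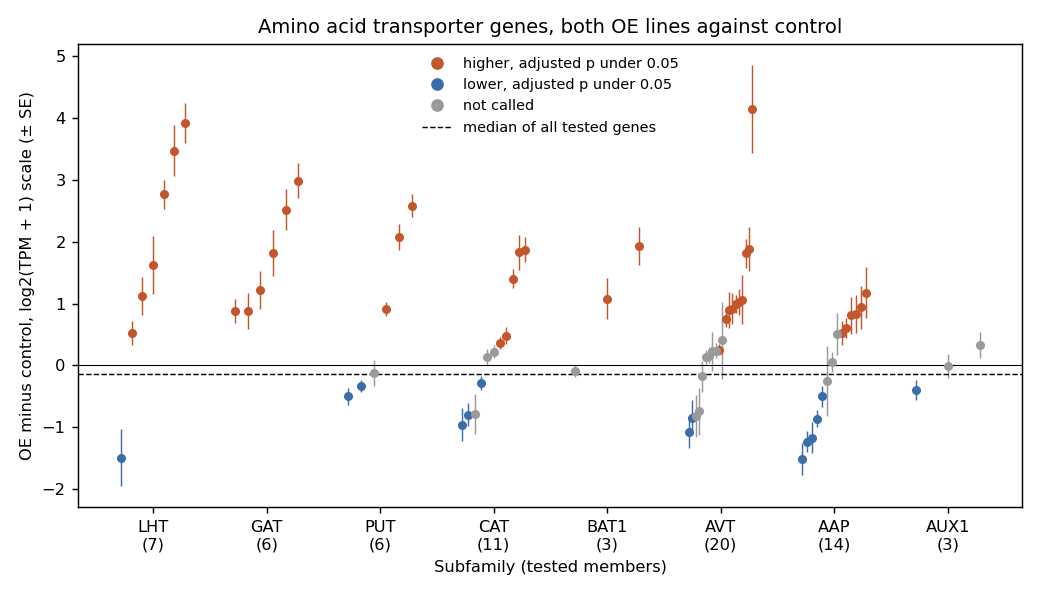
Each point is a tested member; the vertical axis is its difference of both OE lines minus control on the log2(TPM + 1) scale with its standard error, grouped along the horizontal axis by subfamily with the number of tested members. All 6 GAT-type and 6 of 7 LHT-type members are called higher, AAP members lie on both sides of 0, and the dashed line marks the median of all tested genes at -0.13.

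The subfamilies moved unequally. LHT-type genes had the highest median log2 fold change, 1.62, with 6 of 7 tested genes higher and 1 lower. GAT-type genes had a median of 1.51 with 6 of 6 higher. BAT1 had 2 of 3 higher and none lower. PUT-type genes had 3 of 6 higher and 2 lower, CAT genes 5 of 11 higher and 3 lower, and AVT-type genes 10 of 20 higher and 2 lower. AAP genes were the most divided, with 6 of 14 higher and 5 lower, and AUX1 homologs had none of 3 higher and 1 lower. The 9 genes that passed the filter through OE libraries alone include 2 LHT-type, 2 GAT-type, 2 BAT1, 2 AAP genes and 1 CAT gene. Without them 4 of 5 LHT-type genes (median 1.62), 4 of 4 GAT-type genes (median 1.05) and 0 of 1 BAT1 gene were higher, and the AAP median was -0.10 with 5 of 12 higher. These counts describe small groups and were not tested against each other.

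Levels were also summed over each subfamily. The summed level of LHT-type, GAT-type, PUT-type, CAT and BAT1 genes was higher in every OE library than in every control. The members without AUX1 summed to 1210.6 ± 136 TPM in OE leaves (SD, n = 8) and 712 ± 67.9 TPM in control leaves (SD, n = 4). The OE libraries ran from 1057 to 1478 TPM and the controls from 645 to 789 TPM, with no overlap. LHT-type genes summed to 221 ± 42.7 TPM in OE leaves and 42.7 ± 9.10 TPM in control leaves, and GAT-type genes to 90.4 ± 35.9 TPM and 27.7 ± 6.10 TPM. AAP genes went the other way, with 103 ± 18.5 TPM in OE leaves and 157 ± 35.2 TPM in control leaves, and their ranges of 76.0 to 127 TPM and 116 to 198 TPM overlap.

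The makeup of the summed level therefore differed as well. Leaving AUX1 aside, LHT-type genes held 18.3% of the summed TPM in OE leaves and 5.99% in control leaves. AAP genes held 8.48% in OE leaves and 22.1% in control leaves. The LHT1 homolog Potri.001G335300 alone held 12.4% in OE leaves and 3.11% in control leaves.

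**Figure D2:**
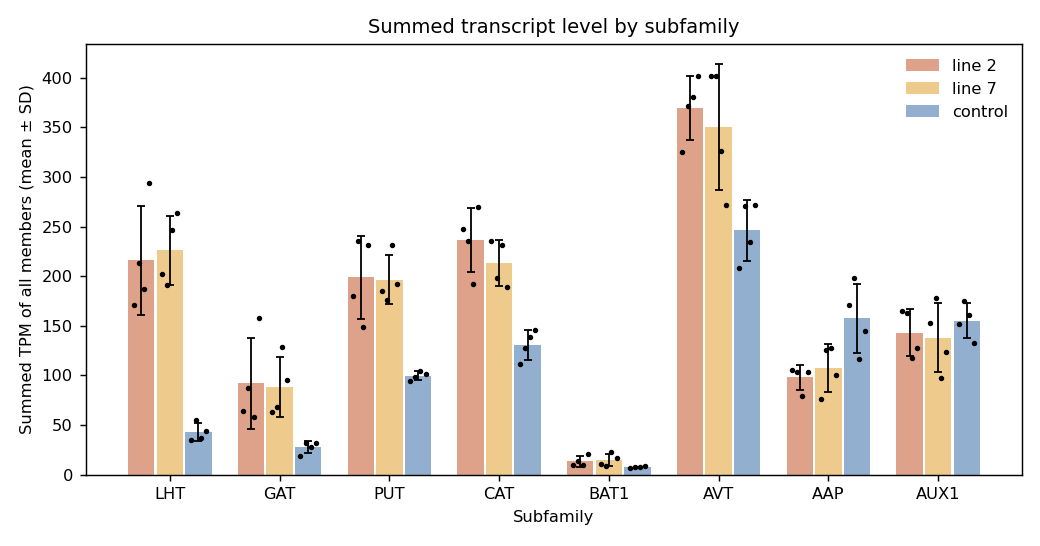
Bars give the mean summed TPM of all members of a subfamily in line 2, line 7 and control (4 libraries each), with the SD as error bar and each library as a point. LHT-type genes average 216 TPM in line 2 and 226 TPM in line 7 against 42.7 TPM in control, while AAP genes average 98.0 and 107 TPM against 157 TPM.

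LHT1 imports a broad range of neutral and acidic amino acids into root and mesophyll cells of Arabidopsis, and its poplar homolog had the highest level of all members in OE leaves. Potri.001G335300 was at 128, 151, 126 and 209 TPM in line 2, at 140.3, 124, 164 and 157 TPM in line 7, and at 10.8, 24.4, 23.7 and 29.7 TPM in control leaves. Every OE library lay above every control. Its difference of 2.77 on the log2 scale (SE 0.23, limma adjusted p = 8.4e-06) was 2.79 in line 2 and 2.74 in line 7.

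A second LHT1 homolog, Potri.001G335200, was far less abundant, with 0.220 to 3.17 TPM in the OE libraries. In the control its libraries were at 0, 0, 0.024 and 0.077 TPM, and it was called higher (limma adjusted p = 0.00963). That call fails without control replicates 1 and 2 (adjusted p = 0.0896), and the gene passed the filter through OE libraries alone. Salmon divides reads between similar transcripts, so the split between the copies is uncertain.

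The largest LHT-type fold changes were in homologs of AT1G47670, which the table describes by family alone. Potri.009G140800 was at 12.1, 19.1, 16.7 and 34.7 TPM in line 2, at 15.8, 12.2, 27.5 and 38.7 TPM in line 7, and at 0.202, 0.986, 0.278 and 0.284 TPM in control leaves. Potri.004G181200 was at 8.89, 12.9, 17.5 and 29.0 TPM in line 2, at 11.4, 11.9, 37.5 and 53.0 TPM in line 7, and at 0.540, 1.12, 0.884 and 0.697 TPM in control leaves. In both genes the groups do not overlap, and the controls are near or below 1 TPM. Their log2 fold changes were 3.92 (SE 0.32) and 3.47 (SE 0.41), with limma adjusted p = 6.42e-06 and 7.35e-05. Potri.009G140800 passed the filter through OE libraries alone, so its p-value is a description.

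The other copies of this locus split. Potri.004G181100 was higher, at 10.8 ± 6.43 TPM in OE leaves and 2.58 ± 1.78 TPM in control leaves (SD, n = 8 and 4), with overlapping libraries (log2 fold change 1.62, limma adjusted p = 0.0119). Potri.014G036500 was lower, at 2.80 ± 2.33 TPM in OE leaves and 9.07 ± 4.86 TPM in control leaves (log2 fold change -1.49, limma adjusted p = 0.0174). The call of Potri.014G036500 was lost without control replicate 1 (adjusted p = 0.0656) and without control replicate 2 (adjusted p = 0.0597). Those replicates were its highest libraries, at 14.3 and 12.1 TPM, against 4.84 and 5.01 TPM in the other controls. Potri.010G128300, paired with AT1G25530, averaged 8.97 TPM in OE leaves and 6.11 TPM in control leaves, and its call (adjusted p = 0.042) failed in 8 of 12 left-out fits (adjusted p 0.0596 to 0.126).

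**Figure D3:**
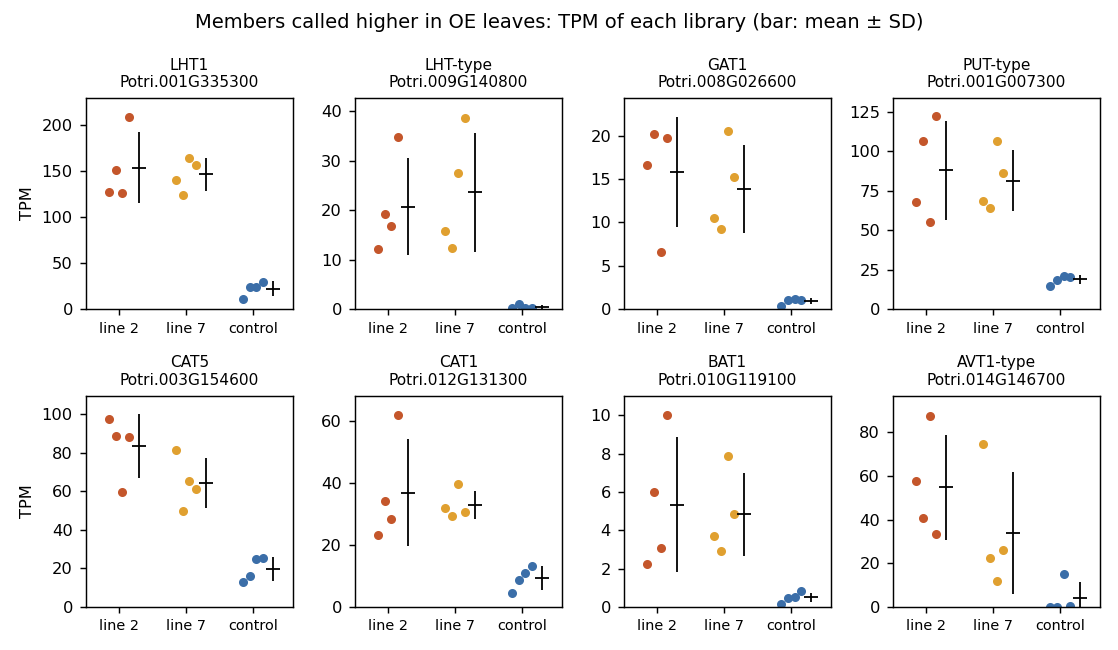
Each panel shows 1 member called higher, with TPM on the vertical axis, 1 point per library in line 2, line 7 and control, and a bar for the mean ± SD of 4 libraries. In 7 of the 8 panels no OE library reaches down to a control, and in the AVT-type gene Potri.014G146700 control replicate 3, at 14.9 TPM, lies within the OE range.

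GAT1 is a high-affinity importer of GABA, a metabolite that rises in stressed plants. All 4 tested homologs were higher in OE leaves, with no overlap between groups, though Potri.008G026700 passed the filter through OE libraries alone. Potri.008G026600 was at 16.7, 20.2, 6.60 and 19.7 TPM in line 2, at 10.5, 9.28, 20.5 and 15.2 TPM in line 7, and at 0.376, 1.06, 1.14 and 1.03 TPM in control leaves. Its fold change was the highest of the GAT-type genes, at 2.99 on the log2 scale (SE 0.29, limma adjusted p = 1.97e-05).

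Potri.009G149900 was the most abundant GAT1 homolog. It was at 23.4, 39.8, 31.9 and 91.7 TPM in line 2, at 32.5, 37.8, 65.5 and 43.3 TPM in line 7, and at 13.0, 19.5, 17.6 and 21.1 TPM in control leaves. Its highest library was line 2 replicate 4, no OE library reached down to a control, and it was higher by 1.21 on the log2 scale (limma adjusted p = 0.00679). Without control replicates 1 and 2 that call fails (adjusted p = 0.0846). Potri.008G026700 was at 4.69, 9.24, 3.96 and 18.3 TPM in line 2, at 5.09, 5.72, 9.60 and 11 TPM in line 7, and at 0.212, 0.500, 0.637 and 0.668 TPM in control leaves, higher by 2.52 on the log2 scale. Potri.005G219300 averaged 5.39 TPM in OE leaves and 2.22 TPM in control leaves, and its call fails without control replicate 1 (adjusted p = 0.0604), without control replicate 2 (adjusted p = 0.0515) and without both (adjusted p = 0.158).

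The remaining GAT-type genes are paired with AT5G41800, which the table describes by family alone. Potri.001G093600 averaged 4.74 ± 2.93 TPM in OE leaves and 0.470 ± 0.245 TPM in control leaves (log2 fold change 1.81). Potri.003G138100 averaged 11 ± 2.58 TPM in OE leaves and 5.62 ± 1.86 TPM in control leaves (log2 fold change 0.88). BAT1 is a bidirectional carrier that also moves GABA, and its homolog Potri.010G119100 was at 5.09 ± 2.72 TPM in OE leaves and 0.487 ± 0.259 TPM in control leaves (log2 fold change 1.93, limma adjusted p = 0.000539). Potri.001G093600 and Potri.010G119100 passed the filter through OE libraries alone. The most abundant BAT1 homolog in the control, Potri.008G125100, was at 5.78 ± 0.619 TPM in OE leaves and 6.20 ± 0.354 TPM in control leaves and was not called (limma adjusted p = 0.399).

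PUT proteins import polyamines such as putrescine and spermidine. A pair of homologs of AT3G13620 was higher in every OE library. Potri.001G007300 was at 67.8, 106, 55.5 and 122 TPM in line 2, at 68.6, 63.8, 107 and 86.0 TPM in line 7, and at 14.7, 18.7, 21.2 and 20.5 TPM in control leaves. Potri.001G007201 was at 31.5, 44.2, 25.0 and 31.1 TPM in line 2, at 28, 24.3, 46.4 and 38.3 TPM in line 7, and at 5.34, 5.36, 4 and 3.95 TPM in control leaves. The groups do not overlap, and the log2 fold changes were 2.08 (SE 0.22) and 2.58 (SE 0.19). The second had the lowest adjusted p of all members (limma, 3.33e-06).

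The other PUT-type genes had smaller fold changes. Potri.001G296100, paired with AT3G19553, averaged 28.4 ± 3.40 TPM in OE leaves and 14.6 ± 1.56 TPM in control leaves (log2 fold change 0.91). Its copy Potri.009G090300 was at 4.73, 3.96, 4.68 and 4.75 TPM in line 2, at 6.22, 5.68, 4.22 and 3.34 TPM in line 7, and at 8.15, 6.38, 6.84 and 6.62 TPM in control leaves. That copy was lower in every OE library (log2 fold change -0.50, limma adjusted p = 0.00913), and the call fails without control replicates 1 and 2 (adjusted p = 0.0782). Potri.003G103600, paired with AT1G31830, was at 29.4, 28, 22.6 and 24.1 TPM in line 2, at 27.3, 23.5, 26.9 and 25.6 TPM in line 7, and at 31.5, 31.2, 37.5 and 31.3 TPM in control leaves. Its groups do not overlap, and its log2 fold change of -0.33 (limma adjusted p = 0.0143) was not called under median ratio scaling (adjusted p = 0.31).

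CAT proteins carry arginine, lysine and other cationic amino acids, and in Arabidopsis CAT1 and CAT5 sit at the plasma membrane and CAT2 at the vacuole. The CAT5 homolog Potri.003G154600 was at 97.3, 88.8, 59.5 and 88.2 TPM in line 2, at 81.2, 49.8, 65.1 and 60.9 TPM in line 7, and at 13.0, 15.8, 24.8 and 25.4 TPM in control leaves. The CAT1 homolog Potri.012G131300 was at 23.0, 34.1, 28.4 and 62 TPM in line 2, at 31.9, 29.2, 39.6 and 30.7 TPM in line 7, and at 4.31, 8.64, 11 and 13.3 TPM in control leaves. Neither gene's groups overlap, and their log2 fold changes were 1.87 (SE 0.21, limma adjusted p = 4.58e-05) and 1.83 (SE 0.28, limma adjusted p = 0.000401).

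Among the other CAT genes some were higher, some lower and some not called. The CAT7 homolog Potri.010G241000 was at 2.94 ± 0.711 TPM in OE leaves and 0.483 ± 0.227 TPM in control leaves. The CAT2 homolog Potri.019G039700, the most abundant CAT gene in control leaves, was at 55.1 ± 7.91 TPM in OE leaves and 39.3 ± 5.69 TPM in control leaves (log2 fold change 0.48), and its call fails without control replicates 1 and 2 (adjusted p = 0.167). The CAT6 homolog Potri.008G000300 was lower, at 1.78 ± 1.04 TPM in OE leaves and 4.10 ± 0.515 TPM in control leaves (log2 fold change -0.96), likewise not called without those controls (adjusted p = 0.067). The CAT8 and CAT9 homologs, Potri.001G378500 and Potri.002G137000, were not called, at 26.6 ± 4.33 TPM and 14.1 ± 1.69 TPM in OE leaves and 24 ± 0.401 TPM and 11.9 ± 0.812 TPM in control leaves.

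AVT proteins are thought to work mostly at the vacuolar membrane, exporting or importing amino acids. Among them Potri.014G146700, paired with AT5G16740, had the highest fitted difference of all members on the log2(TPM + 1) scale, and its libraries vary widely. It was at 57.6, 40.8, 87.6 and 33.4 TPM in line 2, at 74.7, 22.5, 12 and 25.9 TPM in line 7, and at 0.106, 0.035, 14.9 and 0.199 TPM in control leaves. One control thus lies inside the range of line 7. Its difference on the log2 scale was 4.15 (SE 0.71, limma adjusted p = 0.000758). The first place depends on the scale and the controls: without control replicates 1 and 2 the difference was 3.13, below 4.05 for Potri.009G140800. The ratio of mean TPM, OE over control, was 11.6 for Potri.014G146700 and 50.6 for Potri.009G140800.

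The other tested copies of AT5G16740 were also higher, with no overlap. Potri.002G233100 was at 13.2, 18.7, 23.5 and 18.4 TPM in line 2, at 12, 17.6, 11.5 and 10.7 TPM in line 7, and at 0.547, 5.28, 5.84 and 4.57 TPM in control leaves, higher by 1.88 on the log2 scale. Potri.002G233200 averaged 8.20 ± 2.36 TPM in OE leaves and 1.69 ± 0.899 TPM in control leaves, higher by 1.81. Potri.005G102300, paired with AT4G38250, averaged 45.6 ± 11.2 TPM and 21.8 ± 4.90 TPM, higher by 1.02 on the log2 scale. Potri.004G111400, paired with AT3G30390, averaged 39.3 ± 6.15 TPM and 19.2 ± 3.01 TPM, a log2 fold change of 0.99. In each of these 4 genes every OE library lies above every control.

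The most abundant AVT-type gene in the control was not among them. Potri.017G106300, also paired with AT3G30390, was at 60.6 ± 5.54 TPM in OE leaves and 54.5 ± 5.56 TPM in control leaves and was not called (log2 fold change 0.15, limma adjusted p = 0.239), although it was called under median ratio scaling (adjusted p = 0.0462). Both tested copies of AT2G41190 were lower. Potri.006G038700 was at 13.3, 11.7, 20.7 and 13.1 TPM in line 2, at 21.9, 22.2, 11.9 and 7.94 TPM in line 7, and at 34.1, 32.5, 24.8 and 37.0 TPM in control leaves. Its log2 fold change of -1.08 (SE 0.26, limma adjusted p = 0.00463) was not called without control replicates 1 and 2 (adjusted p = 0.0641). Potri.006G038800 averaged 21.0 ± 7.89 TPM in OE leaves and 37.2 ± 9.85 TPM in control leaves (log2 fold change -0.85, limma adjusted p = 0.0237), with overlapping libraries. Its call failed without control replicate 1 (adjusted p = 0.0582), without control replicate 4 (adjusted p = 0.0781), without control replicates 1 and 2 (adjusted p = 0.127) and under median ratio scaling (adjusted p = 0.0563).

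AAP proteins load amino acids into the phloem and take them out of the xylem in Arabidopsis, and several of their homologs were lower in OE leaves. The AAP2 homolog Potri.011G167300 was at 28.8, 22.6, 20.1 and 27.7 TPM in line 2, at 22.2, 28.6, 36.7 and 28 TPM in line 7, and at 74.5, 77.9, 44.4 and 63.1 TPM in control leaves. The AAP3 homolog Potri.002G079400 was at 13.5, 7.47, 5.72 and 5.99 TPM in line 2, at 5.45, 13.2, 10.1 and 12.9 TPM in line 7, and at 23.6, 34.1, 21.4 and 30.3 TPM in control leaves. The AAP6 homolog Potri.002G112100 was at 15.4, 15.5, 11.3 and 11.6 TPM in line 2, at 14.5, 20.1, 13.5 and 14.3 TPM in line 7, and at 29.1, 31.0, 22.1 and 26.1 TPM in control leaves.

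In all 3 of these genes every OE library lay below every control. The log2 fold changes were -1.23 (SE 0.17), -1.52 (SE 0.26) and -0.86 (SE 0.14), with limma adjusted p = 0.000232, 0.000664 and 0.00055. The calls held without control replicates 1 and 2. The AAP2 copy Potri.011G167300 was the most abundant AAP gene in the control. In the same leaves, 23 of the 28 tested phloem markers were lower and none higher, and the summed level of the phloem list ran from 124 to 477 TPM in OE libraries and from 459 to 870 TPM in control libraries. By line, 23 were lower in line 2 and 16 in line 7. Several of these markers are copies paired with the same Arabidopsis gene, AT3G01680, and are not independent. Of the 28 tested xylem and secondary wall markers, 23 were lower and 2 higher, with sums of 29.4 to 155 TPM in OE libraries and 313 to 457 TPM in control libraries. Of 12 tested markers of dividing cells, 10 were lower and none higher, with sums of 8.19 to 37.0 TPM in OE libraries and 23.8 to 92.6 TPM in control libraries. Of 16 tested markers of photosynthetic leaf tissue, 7 were lower and 1 higher. By line, xylem markers had 21 lower in line 2 and 23 in line 7, markers of dividing cells 8 and 3, and photosynthetic markers 5 and 4. Among all tested genes 34% were lower with both lines combined, 32.4% in line 2 and 24.8% in line 7. No marker in these lists was at 0 in all libraries, and the part of cell types in the AAP values, or in those of the other members, was not tested.

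Other AAP copies were higher, at lower levels and with fragile calls. The AAP3 homolog Potri.005G181600 averaged 9.59 ± 5.84 TPM in OE leaves and 3.20 ± 1.19 TPM in control leaves (log2 fold change 1.18, limma adjusted p = 0.0318), and its call failed in 5 of 12 left-out fits (adjusted p 0.0527 to 0.0877) and without control replicates 1 and 2 (adjusted p = 0.256). Potri.002G079500 and Potri.002G079700, further AAP3 homologs, averaged 5.93 and 4.64 TPM in OE leaves and 2.56 and 2.03 TPM in control leaves, and their calls failed in 6 and 7 of 12 such fits and without control replicates 1 and 2 (adjusted p = 0.161 and 0.157). The AAP2 homolog Potri.009G133600 averaged 11 ± 3.39 TPM and 6.41 ± 4.31 TPM, and its call failed in 7 of 12. The AAP7 homolog Potri.011G167466, at 2.27 ± 0.521 TPM in OE leaves and 1.16 ± 0.449 TPM in control leaves, kept its call in all 12. These libraries overlap between groups in all 5 genes.

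**Figure D4:**
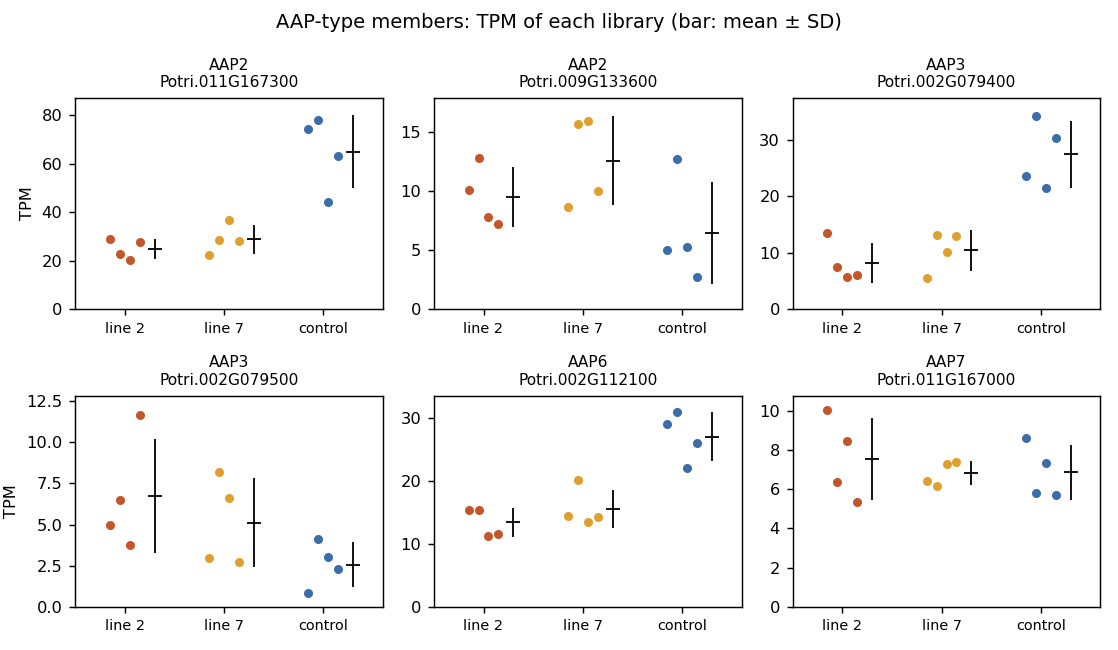
TPM of 6 AAP members, 1 point per library in line 2, line 7 and control, with the mean ± SD of 4 libraries as a bar. The homologs of AAP2 (Potri.011G167300), AAP3 (Potri.002G079400) and AAP6 are below every control in all OE libraries, the other AAP2 and AAP3 copies shown overlap, and the AAP7 homolog Potri.011G167000 was at 7.18 ± 1.49 TPM in OE leaves and 6.86 ± 1.39 TPM in control leaves.

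AUX1 imports auxin, a hormone, and its homologs stand beside the transporter families as genes the wording took in. Potri.016G113600 was at 109, 111, 66.4 and 77.3 TPM in line 2, at 96.0, 111, 59.2 and 69.1 TPM in line 7, and at 71.8, 98.2, 96.6 and 79.8 TPM in control leaves. The groups overlap fully, and the difference on the log2 scale was -0.02 (SE 0.20, limma adjusted p = 0.949). Potri.006G098300 was at 49.1 ± 8.19 TPM in OE leaves and 64.9 ± 11.2 TPM in control leaves, and its call (adjusted p = 0.0496) failed in 10 of 12 left-out fits (adjusted p 0.052 to 0.155), without control replicates 1 and 2 (adjusted p = 0.456) and under median ratio scaling (adjusted p = 0.193).

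Copies paired with the same Arabidopsis gene did not always move together. How often copies split in this way over the whole table was not counted, so the counts here are a description. Of all tested genes 22.1% were higher and 34% lower. Of the 34 Arabidopsis genes, 21 had at least 2 tested copies, with 58 copies between them. In 7 of the 21 all tested copies were called higher, and in 1 (AT2G41190) all were lower. Of those 7, GAT1, LHT1 and AT5G41800 each count a copy that passed the filter through OE libraries alone. Setting such copies aside leaves LHT1 and AT5G41800 with 1 tested copy each. They were kept in all counts of this paragraph. In 5 of the 21 copies were called in opposite directions: AT1G47670, AAP2, AAP3, CAT5 and AT3G19553. The higher copies of AT1G47670 and of AAP3 also include a gene that passed the filter through OE libraries alone. For CAT5, Potri.003G154600 was higher as given above, while Potri.001G076100 was at 2.63 ± 0.673 TPM in OE leaves and 5.39 ± 1.74 TPM in control leaves (log2 fold change -0.80, limma adjusted p = 0.00504). That lower call fails without control replicates 1 and 2 (adjusted p = 0.111). Without control replicate 1 alone, 2 of the 5 loci, CAT5 and AT3G19553, kept copies called in both directions, 5 loci had all copies higher and 0 had all lower. Without control replicates 1 and 2, AAP2 was the single locus with both, 3 loci had all copies higher and 0 had all lower.

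**Figure D5:**
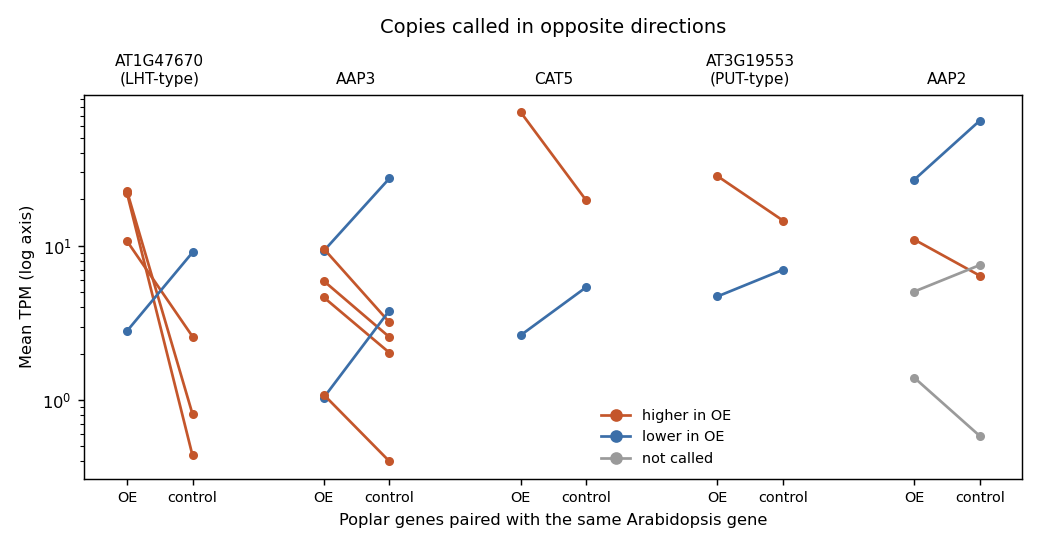
Mean TPM on a log axis in OE leaves (8 libraries, both lines) and control leaves (4 libraries), each line joining the values of 1 poplar gene, for the 5 Arabidopsis genes with copies called in both directions. AT1G47670 has 3 higher and 1 lower copy and AAP3 has 4 and 2, and for AAP2 the lower copy, at 26.8 TPM in OE leaves and 64.9 TPM in control leaves, is the most abundant. The higher copies of AT1G47670 and of AAP3 each include 1 that passed the filter through OE libraries alone.

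The 8 OE libraries also differed among themselves in these genes. Among the 38 higher members, the highest of the 8 values came from line 2 replicate 4 for 14 members and from line 7 replicate 3 for 12. The lowest value came from line 2 replicate 3 for 12 members. The same counts were not made for all genes called higher, so they are not shown to be particular to the members. Over all tested genes, with group means removed, line 2 replicate 4 and line 7 replicate 3 correlated at 0.476. With all 8 OE libraries above every control, 24 of the 70 tested members stood apart, beside 14.6% of all tested genes. With all 8 below every control 7 of the 70 did, beside 19.1% of all tested genes. The 24 include Potri.009G140800, Potri.001G335200, Potri.008G026700, Potri.001G093600, Potri.010G119100, Potri.007G100700 and Potri.010G241000. These genes passed the filter through OE libraries alone, so the count of 24 is a description.

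Other genes of nitrogen transport were examined for comparison, from lists picked with earlier results known. Their counts are set beside the 22.1% higher and 34% lower among all tested genes. Of 22 tested UMAMIT-type carriers, which let amino acids leave cells, 4 were higher and 1 lower, and of 3 tested GLUTAMINE DUMPER genes, regulators of amino acid export, 0 were called (limma), with 1 at an unadjusted p under 0.05. The ANT1 homolog Potri.016G064500, a carrier of aromatic and neutral amino acids whose description the wording does not take, was at 12.2 ± 1.17 TPM in OE leaves and 6.30 TPM in control leaves (log2 fold change 0.85, limma adjusted p = 4.15e-05). The proline transporter PROT1 had a lower homolog, Potri.008G062900, at a log2 fold change of -0.61 (limma adjusted p = 0.00258).

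Carriers of inorganic nitrogen and peptides held more higher than lower genes. Of 21 tested ammonium and nitrate transporters, 13 were higher and 2 lower, led by homologs of the nitrate transporter NRT2.5, Potri.015G081300 and Potri.015G081500, at log2 fold changes of 4.25 and 4.07. Of 14 tested peptide transporters, 6 were higher and 2 lower, among them PTR3 (Potri.008G170100, log2 fold change 3.32). Of 22 tested genes of nitrogen assimilation, 6 were higher and 6 lower. The glutamine synthetase homolog GSR2 (Potri.005G093200) was at a log2 fold change of 2.98 (limma adjusted p = 2.29e-06). Of 14 tested genes of amino acid breakdown, 3 were higher and 3 lower. The higher shares were 18.2% for UMAMIT-type carriers, 27.3% for nitrogen assimilation, 21.4% for breakdown, 42.9% for peptide transporters and 61.9% for ammonium and nitrate transporters, beside 22.1% of all tested genes.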

How the data were processed

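RNA-seq of 12 leaf libraries was analysed from a table of TPM values that the authors deposited; cutadapt, FastQC and Salmon are named without versions in the submitters' processing notes, and the sources used here give no settings, build or annotation. TPM keep no depth, so no counting interval or floor is given, and Salmon divides reads between similar transcripts. TPM are shares, so rises in some genes lower others. From them log2(TPM + 1) was computed, and genes at 1 TPM or more in at least 4 libraries were fitted together (24926 genes) with limma 3.58.1 in R 4.3.3 (3 groups, eBayes with a trend), with two-sided p-values adjusted by Benjamini-Hochberg over all tested genes and a threshold of 0.05. The procedure was run on simulated data with independent noise and 200 genes raised. In these leaves many genes were called in both directions, so that run does not bear on the calls here. Members, subfamilies and comparison lists were chosen with earlier results of these data known; AUX1, ProT and ANT1 were set apart after the values were seen. Any member could be named: values were given per library for the 10 largest rises and 6 falls called in both lines with a mean TPM of at least 5, and other members are mostly given by means. Alternatives were other pseudocounts (0.1 and 5), filters, scalings, a replicate block, library weights, no trend, fits of the groups compared and leaving out libraries.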

Additional observations from a re-analysis of the deposited data

Results flagged for a closer look

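Of 66 groups of 4 libraries examined for the 22 named members, 7 held a library far from the rest of its group, and chance alone flags about 1 group in 20. Potri.014G146700 (AVT-type) was at 14.9 TPM in control replicate 3, with the other controls at 0.035 to 0.199 TPM. Potri.009G140800 (LHT-type) was at 0.986 TPM in control replicate 2, with the other controls at 0.202 to 0.284 TPM. Potri.008G026600 (GAT1) was at 0.376 TPM in control replicate 1, with the others at 1.03 to 1.14 TPM. Potri.003G103600 (PUT-type) was at 37.5 TPM in control replicate 3, with the others at 31.2 to 31.5 TPM, and Potri.017G106300 (AVT-type) was at 46.2 TPM in control replicate 1, with the others at 56.8 to 58.2 TPM. Potri.002G112100 (AAP6) was at 20.1 TPM in line 7 replicate 2, with the others of line 7 at 13.5 to 14.5 TPM. Potri.009G090300 (PUT-type) was at 3.96 TPM in line 2 replicate 2, with the others of line 2 at 4.68 to 4.75 TPM.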

How the results depend on the processing

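With a mean TPM of at least 5, 45 members were tested and 25 were higher and 7 lower in both lines, with 7 lower in line 2. Of all 16454 genes tested in that fit, 3991 were higher and 5028 lower in both lines, with 4833 lower in line 2. Without control replicates 1 and 2, 25 were higher and 4 lower in both lines, 4 were lower in line 2, and 21 were higher and 2 lower in line 7. Among all tested genes that fit gave 3887 higher and 3543 lower for both lines, against 5511 and 8469 in the main fit. It gave 3608 lower in line 2, and 3058 higher and 1955 lower in line 7. In line 2, 7 were lower under median ratio scaling and 8 under quantile normalization, with 6099 and 6518 lower among all tested genes. Leaving out 1 library at a time gave 28 to 38 higher and 9 to 17 lower members in both lines, 23 to 33 and 8 to 15 in line 2, 22 to 33 and 5 to 11 in line 7, and 0 between the lines. Among all tested genes those fits gave 4743 to 5786 higher and 6463 to 8731 lower in both lines. With the replicate number as a block, 35 were higher and 15 lower in both lines, 34 and 12 in line 2, 30 and 10 in line 7, and 0 between the lines. Among all tested genes that block gave 5408 higher and 8337 lower in both lines. Whether the numbers pair the libraries is not given by the labels. After removing group means, 9 of 12 same-numbered pairs correlated above 0.1, including all pairs of numbers 1 and 2, but the range was -0.472 to 0.415. The highest correlation of 5 of 12 libraries was with their own number, and 2 correlated best with it in both other groups. The uncalled AUX1 homolog Potri.016G113600 changed sign under median ratio scaling (0.16) and library weights (0.0035), and leaving out 1 library at a time gave -0.101 to 0.0592. A fit of the groups compared gave no value for both lines together. The cause of these shifts was not tested. Depth is unknown, so low members carry an unknown counting error.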
